A study of Homo sapiens with 6 samples.

Results

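A set of 10 genes of the alcohol dehydrogenase (ADH) and aldehyde dehydrogenase (ALDH) families was followed in hepatoma cells given a herbal decoction. They were chosen by name, as ALDH1A1, ALDH1B1, ALDH2, ALDH3A2, ALDH7A1, ALDH9A1, ADH4, ADH5, ADH6 and ADH1A, and all 10 were found among the 62709 genes of the deposited table. The set holds 6 ALDH and 4 ADH genes. The cells were HepG2.2.15, a subline of the human hepatoma line HepG2 with an integrated hepatitis B virus genome, given in the labels as wild type. All cells grew in medium with serum and G418, an antibiotic that holds the selection of the transfected line. One group of 3 libraries came from cells kept for 3 days with a mixture of traditional Chinese herbs, Yinqi Sanhuang Jiedu Decoction (YQSHJD), which made up 10% of the medium. The other 3 came from cells kept with a control liquid, called physiological saline in the sample labels and PBS in their treatment protocol, and are named saline 1, saline 2 and saline 3 here. A single line stands for the liver cell in this design. Nothing in the labels says that replicates were separate cultures, so the spread behind the p-values is that between these samples and may be technical.

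ADH enzymes oxidise alcohols to aldehydes, and ALDH enzymes oxidise aldehydes to acids, both with NAD or NADP as electron acceptor. The liver holds most of the body's capacity for these reactions and is where ethanol is cleared, first to acetaldehyde and then to acetate. Different members also handle retinal, formaldehyde, long-chain fatty aldehydes and the aldehydes that arise when lysine, choline and carnitine precursors are broken down or built.

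The 7 human ADH genes stand in 1 cluster on chromosome 4. In the coordinates of the deposited table, whose build the sources used here do not give, the cluster runs from 99070978 to 99435510, which is 364.5 kb, and all 7 genes lie on the minus strand. The ALDH genes are spread over the genome. ALDH1A1 (ENSG00000165092, chromosome 9, 72900671 to 73080442, minus strand) and ALDH1B1 (ENSG00000137124, chromosome 9, 38392702 to 38398661, plus strand) share a chromosome. ALDH3A2 (ENSG00000072210, chromosome 17, 19648136 to 19685760, plus strand) is the close neighbour of ALDH3A1, and the gap between them is 52.2 kb. ALDH2 (ENSG00000111275) lies on chromosome 12 from 111766887 to 111817532, ALDH7A1 (ENSG00000164904) on chromosome 5 from 126531200 to 126595362 and ALDH9A1 (ENSG00000143149) on chromosome 1 from 165662216 to 165698562. Within the cluster, ADH5 (ENSG00000197894) spans 99070978 to 99088801 and ADH6 (ENSG00000172955) 99202638 to 99219537.

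The promoters of the 3 members with the largest rises are shown first, because both families include genes under the control of factors that respond to foreign compounds and oxidants. The sequences are from RefSeq on GRCh38.p14, run 5′ to 3′ on the gene's strand, and end at the gene's start or before the first base of an exon of that gene in GENCODE 29. Capitals mark CCAAT, the box bound by the general factor NF-Y. The CCAAT matches of ALDH1B1 and ALDH3A2 given in the next paragraph lie outside the printed stretches, so these show no capitals.
ALDH1A1, chr9:72953057-72953303, minus strand: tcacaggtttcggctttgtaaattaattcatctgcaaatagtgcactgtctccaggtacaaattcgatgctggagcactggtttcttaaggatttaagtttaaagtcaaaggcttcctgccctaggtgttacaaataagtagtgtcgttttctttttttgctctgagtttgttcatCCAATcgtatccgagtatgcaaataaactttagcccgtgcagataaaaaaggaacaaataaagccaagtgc
ALDH1B1, chr9:38392452-38392663, plus strand: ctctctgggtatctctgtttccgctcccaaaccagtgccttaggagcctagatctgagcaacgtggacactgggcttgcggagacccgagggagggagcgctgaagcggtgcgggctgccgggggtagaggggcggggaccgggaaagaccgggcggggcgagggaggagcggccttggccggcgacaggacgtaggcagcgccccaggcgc
ALDH3A2, chr17:19647886-19648135, plus strand: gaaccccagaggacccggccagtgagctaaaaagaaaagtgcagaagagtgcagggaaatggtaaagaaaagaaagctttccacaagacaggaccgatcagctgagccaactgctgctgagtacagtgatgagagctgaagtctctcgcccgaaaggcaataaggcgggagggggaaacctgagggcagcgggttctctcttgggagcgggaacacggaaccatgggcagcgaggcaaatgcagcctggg

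Of the 10 members, 9 had at least 1 promoter in the RefSeq table, with 10 starts in all, and the 250 bases before each start were searched on both strands. The core of the antioxidant response element, TGACNNNGC, was in none of these 10 windows, and 10.9% of all 35116 promoters held it. The core of the xenobiotic response element, GCGTG, was found at 69 and 14 bases before the start of ADH5 and at 76 bases before a second start of ALDH3A2, against 32.2% of all promoters. CCAAT lay 74 bases before the start of ALDH1A1, 26 before that of ALDH1B1, 30 before the second start of ALDH3A2 and 63 before that of ALDH7A1, and was in 32.0% of all promoters. The ADH1A window held it at 172 bases and the ADH4 window at 128 and 56 bases. N stands for any base, none of the matches overlapped another, and binding was not measured.

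The members differed in level by over 2 orders of magnitude. FPKM, which counts fragments relative to gene length and library depth, was used as deposited, and saline levels ran from 217.8 ± 34.7 for ALDH1A1 (SD, n = 3) through 57.5 ± 1.19 for ALDH1B1, 22.1 ± 0.81 for ALDH2, 13.3 ± 0.91 for ADH5, 7.57 ± 0.70 for ALDH9A1, 5.17 ± 0.33 for ALDH3A2 and 4.36 ± 0.58 for ALDH7A1 to 0.98 ± 0.04 for ADH6. The ranges of neighbours in this order did not overlap, although the lowest ALDH3A2 library, at 4.81 FPKM, was next to the highest ALDH7A1 library, at 4.80. With YQSHJD the order was the same except that ALDH3A2, at 11.7 ± 0.49 FPKM, stood above ALDH9A1, at 7.12 ± 0.24. ADH4 and ADH1A were below all others in both groups.

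The order among the lower members depends on the gene length used. The deposited length of ALDH3A2 was 3.90 times, that of ALDH7A1 3.61 times and that of ADH5 1.86 times the length of the longest coding transcript in GENCODE 29. Per kilobase of that transcript, a scale chosen after the data were seen, the saline order was ALDH1A1 at 293.6, ALDH1B1 at 58.4, ADH5 at 24.8, ALDH2 at 22.4, ALDH3A2 at 20.2, ALDH7A1 at 15.7, ALDH9A1 at 8.45 and ADH6 at 1.29. On the same scale ALDH3A2 came next after ALDH1A1 and ALDH1B1 with YQSHJD, at 45.7. The ratio of a gene's mean FPKM between the groups does not depend on its length, whereas the log2(FPKM + 1) differences below do through the pseudocount: that of ALDH3A2 is 1.04 with a pseudocount of 1 and 1.16 with 0.1.

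**Figure D1:**
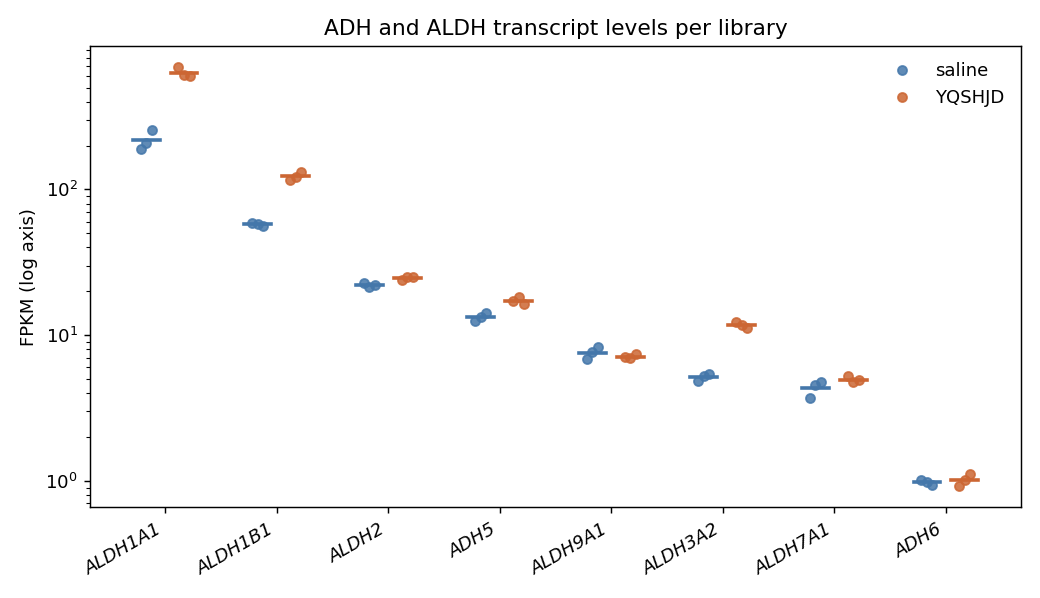
FPKM (log axis) of the 8 members that passed the filter on low values, by library, in saline (blue) and YQSHJD (orange). Points are libraries, 3 per group, and bars are group means; ALDH1A1, ALDH1B1, ALDH3A2, ADH5 and ALDH2 show no overlap between the groups, and ADH4 and ADH1A, at or near 0, are not drawn.

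With YQSHJD, 4 members rose and none fell. Genes that reached 1 FPKM in 3 or more of the 6 libraries were tested on log2(FPKM + 1) with limma, with Benjamini-Hochberg adjustment over all 10966 such genes and a threshold of 0.05. Of the 10 members, 8 passed the filter, 4 rose (ALDH1A1, ALDH1B1, ALDH3A2 and ADH5) and 4 did not pass the test. Over all genes tested the treatment called 41.4%, with 23.3% higher and 18% lower, so the share of members called is near that background. ALDH1A1, ALDH1B1 and ALDH3A2 each rose by a log2 difference of at least 1, as did 2.5% of all tested genes. For 5 of the 8 tested members, all higher with YQSHJD, no library of one group lay within the other group, beside 55.3% of all tested genes in either direction and 30.7% in that one. The median log2 difference was 0.25 over the 8 tested members and 0.04 over all genes tested. After TPM rescaling, described below, these medians were -0.07 and -0.29, so the sign of the members' median depends on the scale.

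ALDH1A1, the cytosolic enzyme that oxidises retinal to retinoic acid, had the largest rise of the members. Its level was 190, 207 and 257 FPKM in saline 1, 2 and 3 and 693, 606 and 603 FPKM in YQSHJD 1, 2 and 3. The lowest treated library was thus far above the highest control library. The mean rose 2.91-fold, from 217.8 ± 34.7 to 634.0 ± 51.4 FPKM (SD, n = 3), a log2 difference of 1.55 ± 0.12 (SE, limma adjusted p = 4.8e-05). Between 8209 and 25396 reads per library lay behind these values. Among all tested genes 91 had a larger rise.

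ALDH1B1, a mitochondrial enzyme that oxidises acetaldehyde and other short aldehydes, stood at 58.6, 57.7 and 56.2 FPKM in saline and at 116, 122 and 132 FPKM with YQSHJD. It was the steadiest of the tested members in saline, with a coefficient of variation of 2.06%, and the groups were well apart. The rise was 2.15-fold, a log2 difference of 1.09 ± 0.08 (SE, limma adjusted p = 4.25e-05).

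ALDH3A2, the fatty aldehyde dehydrogenase of the endoplasmic reticulum and peroxisome, whose loss causes Sjögren-Larsson syndrome, had 4.81, 5.27 and 5.44 FPKM in saline and 12.2, 11.7 and 11.2 FPKM with YQSHJD. All 3 treated libraries were above all controls. The rise was 2.26-fold, a log2 difference of 1.04 ± 0.09 (SE, limma adjusted p = 7.65e-05). The gene overlaps SLC47A2 on the opposite strand and the sources used here do not give the strand setting of the counting, but SLC47A2 had only 4 to 19 reads per library against 1124 to 2415 for ALDH3A2.

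ADH5 is the class III enzyme that clears formaldehyde bound to glutathione and also reduces S-nitrosoglutathione. Its levels were 12.5, 13.3 and 14.3 FPKM in saline and 17.2, 18.2 and 16.3 FPKM with YQSHJD, again with no overlap. The rise was smaller than those above, 1.30-fold, with a log2 difference of 0.35 ± 0.09 (SE, limma adjusted p = 0.0162). This call was lost when saline 1 (adjusted p = 0.0787), saline 2 (0.0636) or YQSHJD 2 (0.0682) was left out, and the log2 difference was 0.01 after TPM rescaling (adjusted p = 0.932) and 0.15 after a correction for GC content (adjusted p = 0.164).

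The scaling between libraries moved these values. The library depth implied by the FPKM values came to 1.03 to 1.05 times the reads in genes in saline and 0.885 to 0.923 times with YQSHJD, and mitochondrial transcripts took 13.5% to 15.7% and 17.6% to 22.4% of reads. Rescaling each library to 1 common sum (TPM) lowered the median of all genes as given above. On that scale ALDH1A1 rose by a log2 difference of 1.19, ALDH3A2 by 0.78 and ALDH1B1 by 0.73, and all 3 calls held, while 47.6% of all genes were called, 7.99% higher and 39.6% lower. The same 3 calls held after GC correction, at 1.35, 0.95 and 1.17 in the same order, beside 44.7% of all genes called and 26% called higher. The GC content of the longest transcript was 41.9% for ALDH1A1, 46.7% for ALDH3A2, 52.1% for ALDH1B1 and 41.0% for ADH5, beside a median of 48.8% over tested genes. In bulk RNA, fewer cells of a kind and less RNA per cell cannot be told apart.

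For the 4 tested members without a call, the 95% intervals of the log2 difference lay between -0.29 and 0.40. ALDH2, the mitochondrial enzyme that clears most acetaldehyde made from ethanol, had 22.9, 21.3 and 22.0 FPKM in saline and 23.8, 25.2 and 25.1 FPKM with YQSHJD. The groups did not overlap, yet the log2 difference of 0.16 missed the threshold (95% interval -0.03 to 0.34, limma adjusted p = 0.160). After TPM rescaling it was -0.20.

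ALDH7A1, or antiquitin, which acts in lysine breakdown and on betaine aldehyde, had 3.70, 4.56 and 4.80 FPKM in saline and 5.23, 4.74 and 4.89 FPKM with YQSHJD. These groups overlapped, and the log2 difference was 0.16 (limma adjusted p = 0.270), or -0.16 after TPM rescaling. ALDH9A1, which makes the carnitine precursor gamma-butyrobetaine, had 6.85, 7.61 and 8.26 FPKM in saline and 7.04, 6.94 and 7.39 FPKM with YQSHJD. Its treated libraries lay inside the control range, with a log2 difference of -0.08 (adjusted p = 0.557). After TPM rescaling it fell by 0.42 on the log2 scale (adjusted p = 0.0203), the only member called lower under any setting tried.

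ADH6, the class V enzyme whose substrates are poorly known, was at the edge of the filter, with 1.01, 0.97 and 0.94 FPKM in saline and 0.92, 1.01 and 1.11 FPKM with YQSHJD. Only 52 to 68 reads per library were behind these values, and the log2 difference was 0.02 (limma adjusted p = 0.869). ADH4, a class II enzyme of adult liver active on ethanol and retinol, was listed at 0 in all 3 saline libraries and at 0.158, 0 and 0.088 FPKM with YQSHJD, from at most 5 reads. ADH1A, a class I enzyme with the near-identical copies ADH1B and ADH1C, was listed at 0 in all 6 libraries. Neither of these was tested, and no fold is given.

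**Figure D2:**
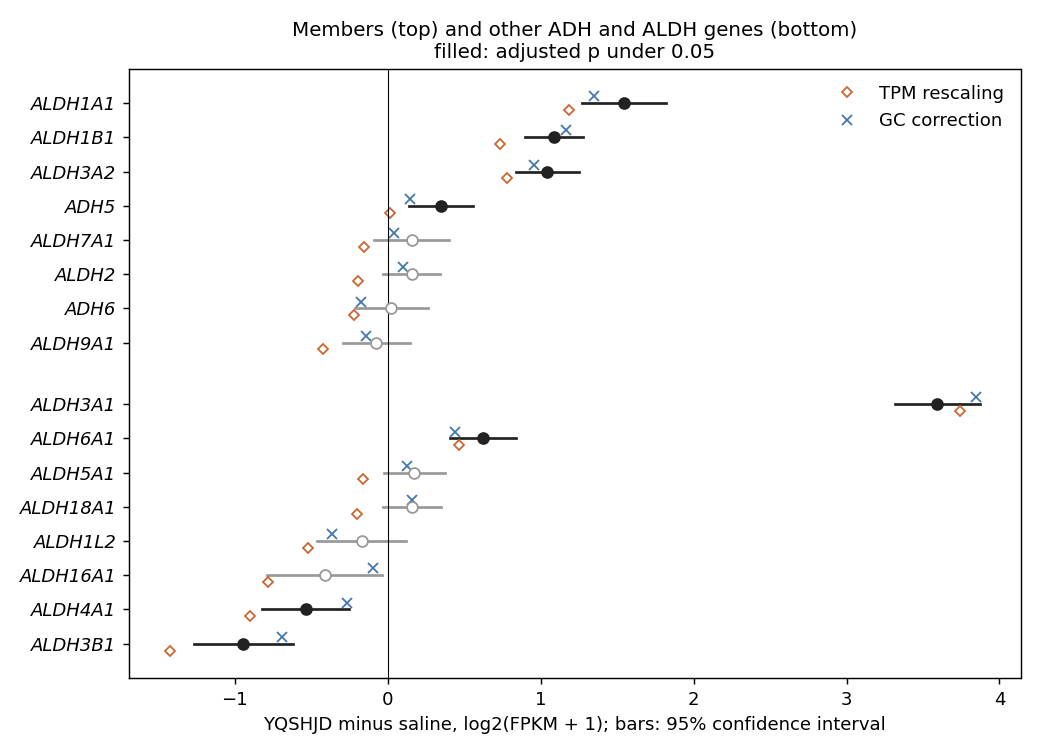
Log2 difference (YQSHJD minus saline, log2(FPKM + 1)) of the 8 tested members (top) and of the 8 other tested ADH and ALDH genes (bottom). Circles are estimates with 95% confidence intervals, filled where the adjusted p was under 0.05; diamonds and crosses give the estimates after TPM rescaling and GC correction. ALDH1A1, ALDH1B1 and ALDH3A2 stay above 0 on the 3 scales drawn, and ADH5 comes to 0.01 after TPM rescaling.

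Within saline, 5 of the 8 tested members (ALDH1A1, ADH5, ALDH3A2, ALDH9A1 and ALDH7A1) had their lowest value in saline 1 and their highest in saline 3, an order that 20.9% of all tested genes had. ALDH1B1 and ADH6 were highest in saline 1 and lowest in saline 3. For ALDH1A1 this spread came to a coefficient of variation of 15.9%, the widest of the tested members in saline.

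ALDH1A1 went from 40.5% to 61.1% of the summed FPKM of the ALDH genes. The summed FPKM of the 19 ALDH genes was 535.5 ± 33.5 in saline and 1037.1 ± 32.9 with YQSHJD (SD, n = 3), 1.94-fold higher. ALDH1A1 made up 37.4%, 39.3% and 44.8% of that sum in saline 1, 2 and 3 and 64.5%, 59.6% and 59.1% in YQSHJD 1, 2 and 3. The groups did not overlap, and the exact two-sided permutation test over libraries gave p = 0.1, the smallest that 3 against 3 allows. A share within a library does not move with the scaling between libraries. It does depend on the deposited gene lengths, which were 1.35 times the longest coding transcript for ALDH1A1 and 3.90 times for ALDH3A2. Shares per coding transcript length were not computed.

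The share of ALDH1B1 was 9.82% to 11.5% in saline and 10.8% to 12.9% with YQSHJD, and these ranges overlapped (exact permutation p = 0.3). ALDH2 went from 4.13% to 2.38%, ALDH9A1 from 1.41% to 0.688% and ALDH7A1 from 0.812% to 0.478%, while ALDH3A2 was at 0.967% and 1.13%. Of the other genes, ALDH18A1 went from 21.2% to 12.2% and ALDH4A1 from 13.9% to 4.96%. The ADH signal, by contrast, was nearly all ADH5 in both groups, at 93.1% ± 0.81 and 94.0% ± 0.80 (SD, n = 3) of a sum of 14.3 ± 0.86 and 18.4 ± 0.86 FPKM.

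**Figure D3:**
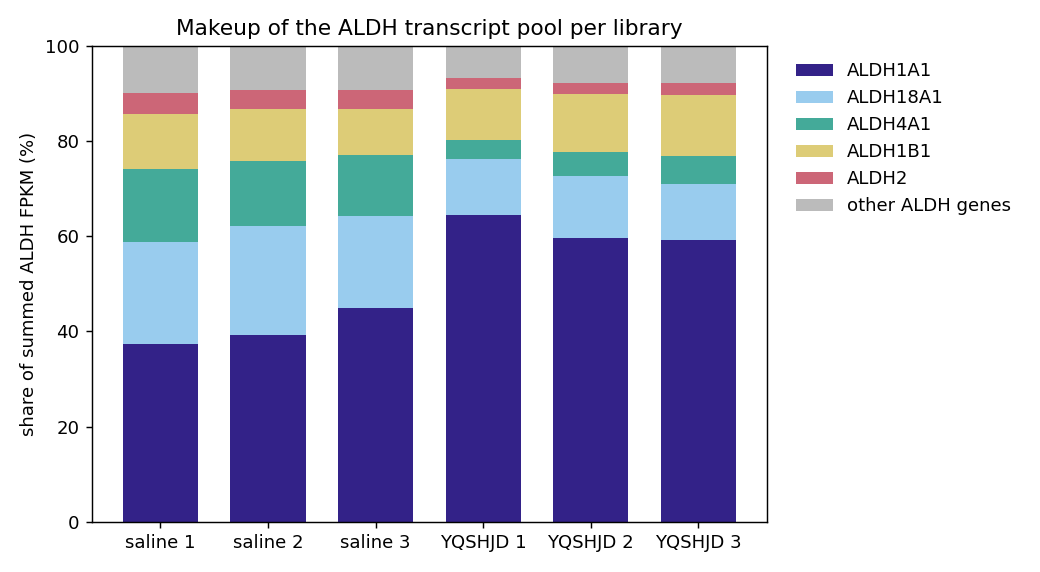
Share (%) of the summed FPKM of 19 ALDH genes in each library, stacked by gene. ALDH1A1 takes 37.4% to 44.8% in the saline libraries and 59.1% to 64.5% in the YQSHJD libraries, and ALDH4A1 and ALDH18A1 take less there.

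The rest of the family did not move as one. Of 16 further ADH and ALDH genes, 8 passed the filter, 2 rose, 2 fell and 4 did not pass the test, with a median log2 difference of -0.01. Over all genes tested 41.4% were called, 23.3% higher and 18% lower, so the share called is near that background. ALDH3A1, the neighbour of ALDH3A2 and an enzyme for aromatic and lipid-derived aldehydes, had 0.98, 0.97 and 1.27 FPKM in saline and 20.5, 25.0 and 27.0 FPKM with YQSHJD. That is 22.5-fold, a log2 difference of 3.59 ± 0.12 (SE, limma adjusted p = 8.84e-07). ALDH3A1 would not have met the filter without the YQSHJD libraries, and with no filter its limma adjusted p was 2.06e-04. The table lists 1 gene that lies wholly within the gap between these neighbours, a lncRNA with 0 reads in every library, and SLC47A2 reaches into the gap from ALDH3A2.

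ALDH6A1, which acts in valine breakdown, rose from 1.57 to 2.97 FPKM (log2 difference 0.62, adjusted p = 0.00128). ALDH3B1, for lipid aldehydes at membranes, fell from 4.89 to 2.09 FPKM (-0.94, adjusted p = 0.00128), with a log2 difference of -1.43 after TPM rescaling and -0.69 after GC correction. ALDH4A1, of proline breakdown, fell from 74.1 to 51.3 FPKM (-0.54, adjusted p = 0.010). The ALDH4A1 difference was -0.26 after GC correction and -0.90 after TPM rescaling, and without the filter on low values its adjusted p was 0.0530. The GC content of the genes that fell was 59.5% for ALDH3B1 and 60.5% for ALDH4A1, above the median, and its part in these falls was not tested beyond that correction. Of the 2 that rose, ALDH3A1 was at 59.5%, with a GC-corrected log2 difference of 3.85, and ALDH6A1 at 42.8%.

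The genes without a call were ALDH18A1, of proline synthesis (0.16), ALDH5A1, of GABA breakdown (0.17), ALDH1L2, a mitochondrial folate enzyme (-0.17), and ALDH16A1 (-0.41, adjusted p = 0.0758). Both of the latter were called lower under some alternatives, ALDH1L2 after TPM rescaling (-0.52, adjusted p = 0.0153), after GC correction (-0.36) and without YQSHJD 1 (-0.31), and ALDH16A1 under 5, among them TPM rescaling (-0.78, adjusted p = 0.0191), while its GC-corrected value was -0.10. ALDH16A1 overlaps PIH1D1 and ALDH1L2 overlaps WASHC4 on the opposite strand, with read numbers in the same range or above, so their values are uncertain. The 8 that did not pass the filter were ADH1B, ADH1C, ADH7, ALDH1A2, ALDH1A3, ALDH1L1, ALDH3B2 and ALDH8A1.

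Genes that supply or use the same substrates were read beside the members, in lists that were written with earlier results of these data known. Around ALDH3A2, 5 of 10 genes of fatty aldehyde and alcohol handling passed the filter, 4 rose and 1 fell, with a median log2 difference of 0.73. The omega-hydroxylases CYP4F3 (1.44, limma adjusted p = 3.74e-05) and CYP4F11 (1.08, adjusted p = 2.16e-04) rose. They start the path from fatty acid to dicarboxylic acid and belong to a family of close copies. CYP4F3 went from 0.75 to 3.74 FPKM and met the filter only through the YQSHJD libraries. A gene this low in saline could be tested only because it was higher with YQSHJD, and the list's counts and median include it. HACL1 (0.73) and PHYH (0.60), both of the peroxisomal alpha-oxidation that releases a fatty aldehyde, rose as well. SGPL1, named after its value was seen, fell from 16.8 to 13.8 FPKM with no overlap between the groups (-0.27, adjusted p = 0.0357). The SGPL1 call was lost with no filter on low values, with the replicate number as a block, and when any library but YQSHJD 1 was left out. After TPM rescaling 3 rose and 1 fell, and PHYH was no longer called (adjusted p = 0.0738).

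Around ADH5, 7 of 8 genes of formaldehyde and one-carbon handling passed the filter, 4 rose and 2 fell, with a median of 0.29. GSR, glutathione reductase, rose from 21.3 to 52.2 FPKM (log2 difference 1.26, limma adjusted p = 2.12e-05). ESD, the hydrolase that takes the product of ADH5, stood at 8.69, 8.64 and 10.4 FPKM in saline and 21.8, 13.2 and 13.7 FPKM with YQSHJD (0.72, adjusted p = 0.0140), and the log2 difference was 0.50 without YQSHJD 1. The ESD call was lost without saline 1 (adjusted p = 0.0553), with no filter on low values (0.0734) and after TPM rescaling (0.101). AOX1, aldehyde oxidase, rose (0.98, adjusted p = 8.2e-04), and SHMT2, which feeds one-carbon units in mitochondria, fell from 188.4 to 90.0 FPKM (-1.07, adjusted p = 2.51e-04). After TPM rescaling 2 genes of the list were called higher and 3 lower, with a median of -0.03.

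Around ALDH7A1 and ALDH9A1, 11 of 14 genes of lysine, betaine and carnitine paths passed the filter, 5 rose and 2 fell, with a median of 0.23. BHMT2 (0.93, limma adjusted p = 1.03e-04) and BHMT (0.88, adjusted p = 4.78e-04), close copies of each other that pass methyl groups to homocysteine, rose, as did DMGDH (0.81), which takes the dimethylglycine they leave. SARDH, which takes the sarcosine that DMGDH makes and is named after its value was seen, fell, with no overlap between the groups (-0.42, adjusted p = 0.0310). The SARDH call was lost at least after GC correction, with no filter on low values, and without saline 1 or saline 3. The GC content of SARDH was 63.0%, beside a median of 48.8% over tested genes. CHDH, which makes betaine aldehyde from choline, rose too (0.40, adjusted p = 0.010) but came to 0.06 after TPM rescaling. On that scale 3 genes of the list were called higher and 2 lower, with a median of -0.02. The other tested genes are named after their values were seen and given before rescaling. PIPOX rose (0.33, adjusted p = 0.0117) and PHYKPL fell (-0.38, adjusted p = 0.0370), a call lost at least under the settings named for SARDH. AADAT (0.03), GCDH (0.04) and DHTKD1 (0.14), of lysine breakdown, and TMLHE (0.23), of carnitine synthesis, were not called.

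Around ALDH2 and the ADH genes, 5 of 8 genes of ethanol and acetate handling passed the filter, 2 rose and 1 fell, with a median of 0.16. CAT, catalase, was higher by 0.33 (limma adjusted p = 0.0272), the sulfotransferase SULT1A2 by 0.70 (adjusted p = 0.0274), and the acyl-CoA synthetase ACSS3 fell by 0.26 (adjusted p = 0.0477). None of the 3 calls held when saline 1 (adjusted p of 0.119, 0.0779 and 0.136 in the same order), saline 2 (0.0820, 0.0628 and 0.0828) or YQSHJD 2 (0.0893, 0.0749 and 0.101) was left out, nor with no filter on low values. The SULT1A2 call was also lost without YQSHJD 3, and that of ACSS3 without any one of the 6 libraries. After TPM rescaling none of the 5 was called higher and 2 were called lower, with a median of -0.17. SULT1A2 also has a near copy in SULT1A1, which makes its value uncertain. The genes below the filter were not tested and are named after their values were seen. CYP2E1 had 0.13 ± 0.04 FPKM in saline and 0.58 ± 0.09 with YQSHJD (SD, n = 3), from 12 to 81 reads, with no overlap. The groups of SULT1A1 overlapped, and ACOT12 was listed at 0.

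Around ALDH1A1, 11 of 30 retinoid genes passed the filter, 1 rose, 1 fell and 9 did not pass the test, with a median of -0.06. DHRS3, which turns retinal back to retinol, rose from 18.4 to 28.1 FPKM (0.58, limma adjusted p = 0.00134), but not past the threshold after TPM rescaling (0.24, adjusted p = 0.0862). CYP26B1, which breaks down retinoic acid, fell from 2.89 to 1.56 FPKM (-0.61, adjusted p = 0.00998, or 0.0520 without the filter on low values). After TPM rescaling 6 of the 11 were called lower and none higher, beside 39.6% of all tested genes called lower on that scale, and the CYP26B1 difference was -1.06.

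**Figure D4:**
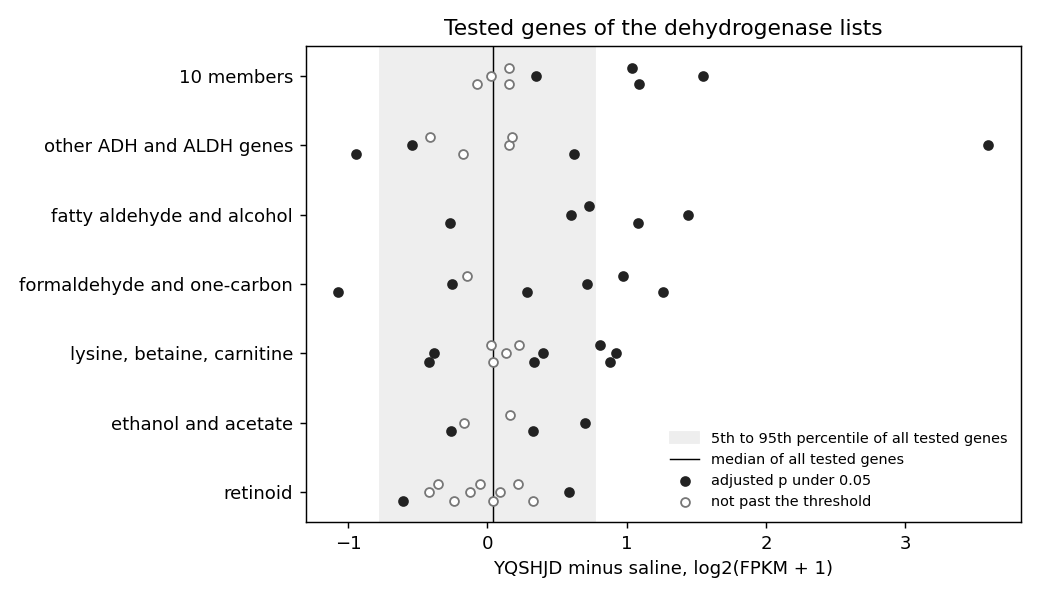
Log2 difference (YQSHJD minus saline, log2(FPKM + 1)) of each tested gene in the members and the 6 related lists. Filled points had an adjusted p under 0.05; the grey band spans the 5th to 95th percentile of all tested genes and the line is their median, 0.04. ALDH3A1 stands alone at 3.59, and the retinoid genes lie inside the band.

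The tested protein-coding genes whose pattern was most like that of ALDH1A1 over the 6 libraries were TMEM135 (Pearson r 0.9996), EEF1AKMT1 (0.9995) and HADHA (0.9995). The likeness is a description of 6 libraries in 2 separate groups, and 369 genes had r above 0.98. HADHA, a subunit of the mitochondrial fatty acid oxidation complex, went from 48.3 to 100.5 FPKM.

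The libraries held 13370372 to 15615649 reads in genes, and YQSHJD 1 lay farthest from its group. Leaving it out kept the calls of all 4 members that rose. All 10 hepatocyte markers checked were detected, with a summed level of 2924 to 3195 FPKM in saline and 4393 to 5298 with YQSHJD. Of these, 6 were called higher and none lower, beside 23.3% and 18% of all tested genes. TTR went from 21.0 to 16.3 FPKM with no overlap between the groups but was not called (limma adjusted p = 0.0743). With median-of-ratios scaling, with limma-voom and without YQSHJD 3, 1 marker was called lower. After TPM rescaling 3 of these markers were called higher and 2 lower. Markers of other cell types had lower sums than the hepatocyte markers. The 7 fibroblast genes summed to 15.0 to 19.5 FPKM in saline and 13.2 to 14.0 with YQSHJD, with COL3A1 and DCN at 0. Nearly all of that sum was ACTA2, at 16.7 and 13.5 FPKM. The 5 endothelial genes summed to 4.91 to 5.44 and 5.29 to 6.22 FPKM, most of it VWF, at 4.53 and 4.33 FPKM. Neither ACTA2 nor VWF was called. The 6 immune genes summed to 88.0 to 93.8 and 208.7 to 224.2 FPKM, nearly all of it LYZ, at 90.5 and 212.9 FPKM, with PTPRC at 0. LYZ (log2 difference 1.22), CD79A (0.49) and the endothelial PECAM1 (0.51) were called higher, beside 23.3% of all tested genes. CD79A and PECAM1 met the filter only through the YQSHJD libraries.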

How the data were processed

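Polyadenylated RNA of 6 libraries was sequenced from TruSeq kits, per the labels' protocols. The authors deposited FPKM values for 62709 genes in 1 table with gene names, coordinates and gene lengths. CASAVA 2.19 is named per the submitters' processing notes, and the sources used here do not give the aligner, counter, strand setting, genome build or annotation. The gene length that the authors deposited, a value in bases of another kind than expression, was used to recover reads: in each library, 100% of the products of FPKM and length were whole multiples of a common step, within 0.01 reads. The values of 6 more columns, with names that match no sample, were not used, and 1 line was empty.

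The members and lists were chosen with earlier results of these data known. Genes at 1 FPKM or more in at least 3 of 6 libraries (10966) were tested on log2(FPKM + 1) with limma 3.58.1 in R 4.3.3, two-sided, with a trended robust prior and Benjamini-Hochberg adjustment. With the pseudocount of 1, log2 differences of low genes are smaller than the true ones, and folds are ratios of mean FPKM. With 13370372 to 15615649 reads in genes per library, a gene near 1 FPKM rests on few reads (52 to 68 for ADH6). A value of 0 is given only as listed at 0.

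Named genes were all 10 members, every tested ADH and ALDH gene, the 4 called genes with the smallest adjusted p of each other list (all where fewer were called), and the 3 protein-coding genes most correlated with ALDH1A1. A few more of these lists, marked as such, were named after their values were seen. Alternatives were a pseudocount of 0.1, no filter, a filter at 5 FPKM, TPM rescaling, median-of-ratios scaling, limma without trend and robust prior, limma-voom on recovered reads, the replicate number as a block, and the omission of each library in turn. Those chosen after seeing the data were TPM rescaling without mitochondrial genes, a GC correction (loess, span 0.5, on the longest transcript of GENCODE 29, known for 98.6% of tested genes) and levels per coding transcript length. Figures were drawn with matplotlib 3.10.9.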

Additional observations from a re-analysis of the deposited data

How the results depend on the processing

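The number of genes called, 4536, was 2957 with no filter on low values and 2805 to 4812 when 1 library was left out, the lowest without saline 1. The members called numbered 4, and 3 to 4 when 1 library was left out, and ADH5 was the one lost. ALDH1A1, ALDH1B1 and ALDH3A2 were called higher under all 16 alternatives run, with log2 differences of 1.19 to 1.67, 0.73 to 1.17 and 0.78 to 1.16. Related genes called were 27, with 18 to 28 when 1 library was left out, 18 with no filter and 20 with a filter at 5 FPKM. The number tested also changes with the filter, so these counts are not shares. Over all genes, 4536 of 10966 were called, 2957 of 26577 with no filter and 3165 of 6310 with that at 5 FPKM. Signs turned after TPM rescaling for ALDH2 (-0.20), ALDH7A1 (-0.16), ADH6 (-0.22), ALDH5A1 (-0.16), ALDH18A1 (-0.20) and CAT (-0.027), and with the same rescaling without mitochondrial genes for ALDH2 (-0.028), ADH6 (-0.12) and ALDH18A1 (-0.031). ADH6 also turned with median-of-ratios scaling (-0.00086), after GC correction (-0.18) and when 1 library was left out (-0.011 without YQSHJD 3, up to 0.059 without YQSHJD 1). The cause was not tested. With only the 10 members in the sum, the change in share was 9.58 percentage points for ALDH1A1, -3.09 for ALDH1B1, -4.00 for ALDH2, -0.20 for ALDH3A2, -0.77 for ALDH7A1 and -1.53 for ALDH9A1, beside 20.6, 1.14, -1.75, 0.16, -0.33 and -0.73 with all ALDH genes, since the sum then holds fewer genes. The ALDH1B1 change with all ALDH genes was 0.64 to 1.70 when 1 library was left out.

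Same-numbered saline and YQSHJD libraries had deviations from their group means that correlated at -0.24, -0.11 and -0.04. Those of differently numbered libraries correlated at -0.17 to 0.21. No shared shift of same-numbered libraries was seen, and whether they were handled in pairs was not tested. With the replicate block 3707 genes, 3 members and 21 related genes were called, and ADH5 had an adjusted p of 0.0573.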
